A study of Mus musculus with 8 samples.

Results

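The smooth muscle contractile genes Acta2, Actg2, Myh11, Tagln, Cnn1, Des, Mylk, Myl9 and Tpm2 were measured in cells of the mouse testis at postnatal day 12. They were chosen by gene symbol as genes of the peritubular myoid cell, and all 9 were found among the 28460 genes of the deposited table. RNA-seq was carried out on 4 libraries from conditional Brg1 knockout mice (Brg1 cKO) and 4 from wild-type mice (Brg1 WT), all on a mixed background. Brg1, encoded by Smarca4, is the ATPase that drives SWI/SNF complexes as they move nucleosomes. The cells are labelled as spermatogenic and came from testes digested with collagenase and trypsin and sieved, and the labels name no marker by which they were sorted. The sources used here do not give the Cre driver, the deleted part of the gene or the number of mice behind each library, so the cell types in which Brg1 was deleted cannot be stated.

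Peritubular myoid cells are flat, smooth-muscle-like cells that surround the seminiferous tubule, and their contraction moves fluid and sperm along it. In smooth muscle, filaments of actin slide against filaments of myosin when myosin light chain kinase phosphorylates the regulatory light chain. Many of the genes for this machinery are transcribed through serum response factor, which binds CArG boxes together with myocardin-related coactivators. The blood vessels of the testis also hold smooth muscle and pericytes that use the same genes. The comparison asks whether these somatic transcripts, recovered with the germ cells, differed between the genotypes.

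Actg2, the gene for smooth muscle gamma actin, was the member that differed between the genotypes. It was 2.20-fold lower in Brg1 cKO, with every Brg1 cKO library below every Brg1 WT library. Of all genes tested, 11.8% were called lower and 15.0% had every Brg1 cKO library below every Brg1 WT library, so 1 of 9 members is near the background on both counts. The other 8 members overlapped between the genotypes and did not pass the test, with log2 fold changes of -0.09 to 0.42. These 8 varied together from library to library. Once the genotype means were subtracted, Actg2 correlated with each of them over the 8 libraries (r of 0.61 to 0.94), and no correlation was taken within a single genotype.

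Acta2 and Actg2 encode closely related actins, so their sequences bear on whether reads of one could be counted for the other. The start of each open reading frame is shown, from the GENCODE M21 transcripts of mouse chromosomes 19 (Acta2) and 6 (Actg2), with capitals for bases that differ from or have no partner in the other.
Acta2: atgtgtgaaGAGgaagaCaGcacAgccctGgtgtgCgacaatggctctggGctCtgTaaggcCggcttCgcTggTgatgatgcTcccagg
Actg2: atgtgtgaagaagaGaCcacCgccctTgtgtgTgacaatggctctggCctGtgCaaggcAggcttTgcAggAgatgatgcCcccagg
Among the first 90 coding bases of Acta2, 16 differed from or lacked a partner in Actg2. Over the whole open reading frames, 1134 bases for Acta2 and 1131 for Actg2, identity was 84.2% and the longest identical run was 29 bases. Of all 31-base stretches in the Actg2 transcripts, 1.21% also occurred in transcripts of another gene, the most frequent being the cardiac actin gene Actc1. The deposited estimated counts of Actg2 were whole, within 0.01, in 8 of 8 libraries, as they are when no read is divided with another gene. Those of Acta2 were not whole in any library, and 1.39% of its 31-base stretches occurred in another gene.

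Among the other members Tagln stood apart in sequence, with 62.2% of its 31-base stretches also found in other gene models, mostly Gm48529. Its deposited counts were nevertheless whole in 8 of 8 libraries, so no division of its reads was visible. Mylk shared 5.52%, Des 5.28%, Myh11 0.905%, Myl9 0.412% and Tpm2 0.299% of such stretches with other genes, and Cnn1 shared 0%. The deposited counts of Mylk and Myh11, like those of Acta2, were whole in 0 of 8 libraries. Those of Myl9 were whole in 7 of 8, and those of Des, Tpm2 and Cnn1 in 8 of 8. For Myh11 the partner that shared most was Myh9, a non-muscle myosin, and for Tpm2 it was Tpm1.

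Smarca4 was measured first as the check on the labels. It had 129, 122, 111 and 122 CPM (estimated counts scaled to a common library total) in Brg1 cKO replicates 1 to 4, against 347, 357, 347 and 338 CPM in Brg1 WT replicates 1 to 4. The difference was -1.52 ± 0.06 on the log2 scale (SE, adjusted p = 6.8e-06, edgeR quasi-likelihood test), with no overlap between the genotypes. Library totals ran from 20456743 to 27872409 estimated counts in Brg1 cKO and from 25213109 to 32596038 in Brg1 WT. Across 16059 genes tested, 3312 (20.6%) passed an adjusted p under 0.05, 1900 lower (11.8%) and 1412 higher (8.79%) in Brg1 cKO, at a median log2 fold change of 0.01. Without overlap, 2407 genes were lower (15.0%) and 1775 higher (11.1%) in Brg1 cKO.

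The 9 members together took 0.196% to 0.278% of the estimated counts of a Brg1 cKO library and 0.137% to 0.227% of a Brg1 WT library. By edgeR, 1 of the 9 was called lower, none higher and 8 were not called, beside 11.8% and 8.79% of all genes tested. At an unadjusted p under 0.05, 1 was lower and 1 higher, and DESeq2 and limma-voom each called 1 lower and none higher. The median log2 fold change over the 9 members was 0.35, against 0.01 over all genes tested. With 1 library left out it ran from 0.18, without Brg1 WT replicate 1, to 0.44, without Brg1 cKO replicate 4. At an unadjusted p under 0.05, 0 and 4 members were higher in those fits. In these bulk samples, fewer cells of a type and less RNA per cell cannot be told apart.

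**Figure D1:**
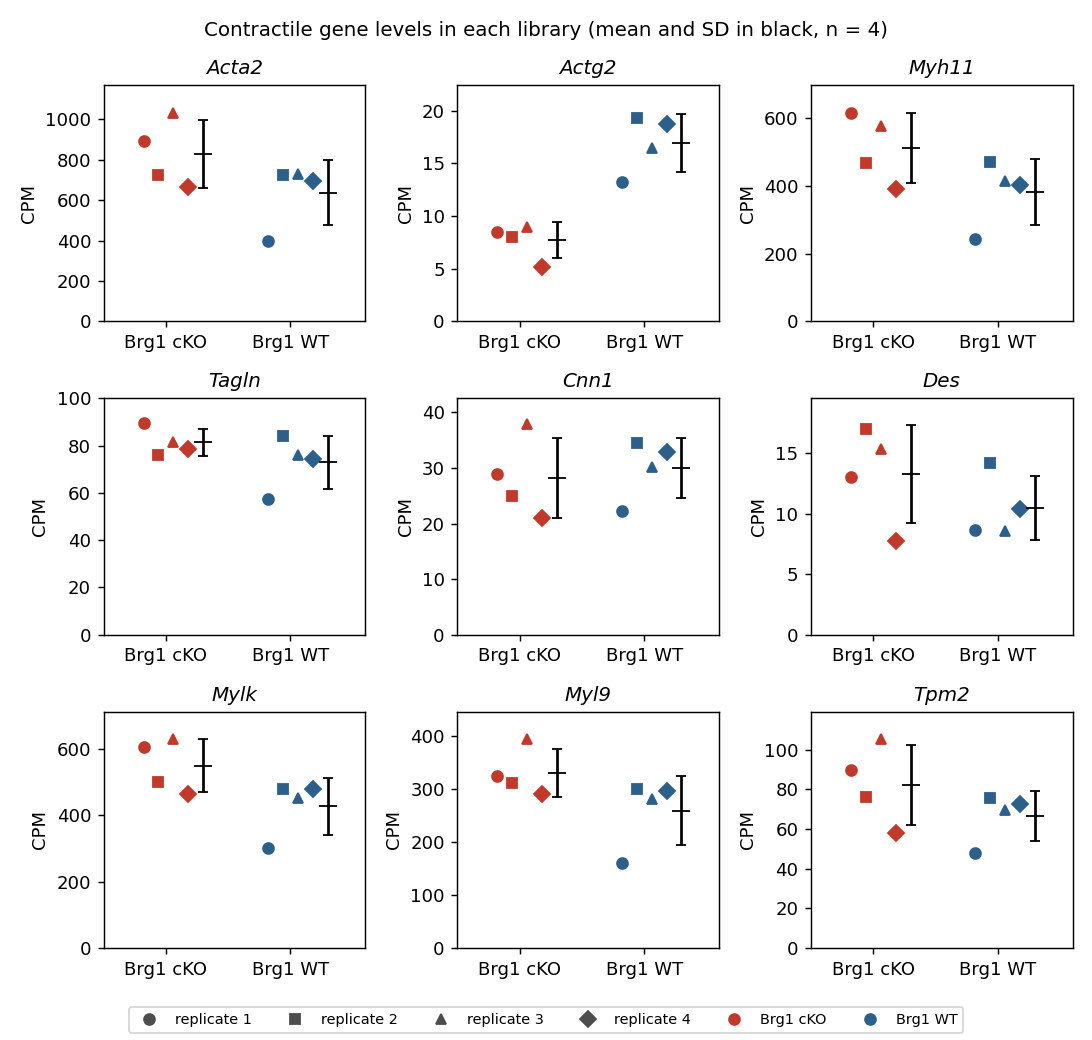
CPM (vertical axes, from 0) of each contractile gene in the 4 Brg1 cKO libraries (red, left) and the 4 Brg1 WT libraries (blue, right), one symbol per replicate number, with mean ± SD in black (n = 4 each). For Actg2 all Brg1 cKO points lie at or under 8.98 CPM and all Brg1 WT points at or above 13.3 CPM, while the points of the other 8 genes overlap.

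Actg2 had 186, 221, 224 and 105 estimated counts in Brg1 cKO replicates 1 to 4, against 393, 504, 538 and 459 in Brg1 WT replicates 1 to 4. Scaled for depth, these were 8.52, 8.05, 8.98 and 5.19 CPM in Brg1 cKO and 13.3, 19.3, 16.4 and 18.7 CPM in Brg1 WT. The highest Brg1 cKO library lay below the lowest Brg1 WT library, with Brg1 cKO replicate 4 lowest of all. Means were 7.69 ± 1.70 CPM in Brg1 cKO and 16.9 ± 2.74 CPM in Brg1 WT (SD, n = 4 each). The log2 fold change was -1.14 ± 0.19 (SE, 95% interval -1.55 to -0.72, adjusted p = 0.0053, edgeR quasi-likelihood test). It was called lower in each of 17 alternative fits that kept the baseline, at log2 fold changes of -1.24 to -0.99. Adjusted p ran from 5.2e-07 (DESeq2) to 0.0415 (edgeR without Brg1 WT replicates 1 and 2). Fits with a shifted baseline lower every gene, so the lower calls of Actg2 there add no support.

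Acta2 encodes smooth muscle alpha actin, the actin by which peritubular myoid cells are usually recognised. It had 895, 723, 1033 and 664 CPM in Brg1 cKO replicates 1 to 4 and 399.7, 724, 730.2 and 697 CPM in Brg1 WT replicates 1 to 4. Brg1 cKO replicates 1 and 3 lay above every Brg1 WT library, replicates 2 and 4 lay within the Brg1 WT range, and Brg1 WT replicate 1 was lowest of all. Means were 829 ± 168 CPM in Brg1 cKO and 638 ± 159 CPM in Brg1 WT (SD, n = 4 each). They differed by 0.38 ± 0.21 (SE) on the log2 scale, which did not pass the test (edgeR, adjusted p = 0.226). The 95% interval of the ratio of Brg1 cKO to Brg1 WT, 0.933 to 1.81, leaves room for a small fall as well as a rise.

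The ratio of the actins set the genotypes apart. For each 100 Acta2 counts there were 0.952, 1.11, 0.870 and 0.783 Actg2 counts in Brg1 cKO replicates 1 to 4, against 3.32, 2.67, 2.25 and 2.68 in Brg1 WT replicates 1 to 4. Means were 0.929 ± 0.141 in Brg1 cKO and 2.73 ± 0.440 in Brg1 WT (SD, n = 4 each), and the libraries did not overlap. The ratio was formed with the result for Actg2 known and is given without a test. Counts in it are not divided by length. How many of all genes would separate the genotypes when set against Acta2 was not counted.

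**Figure D2:**
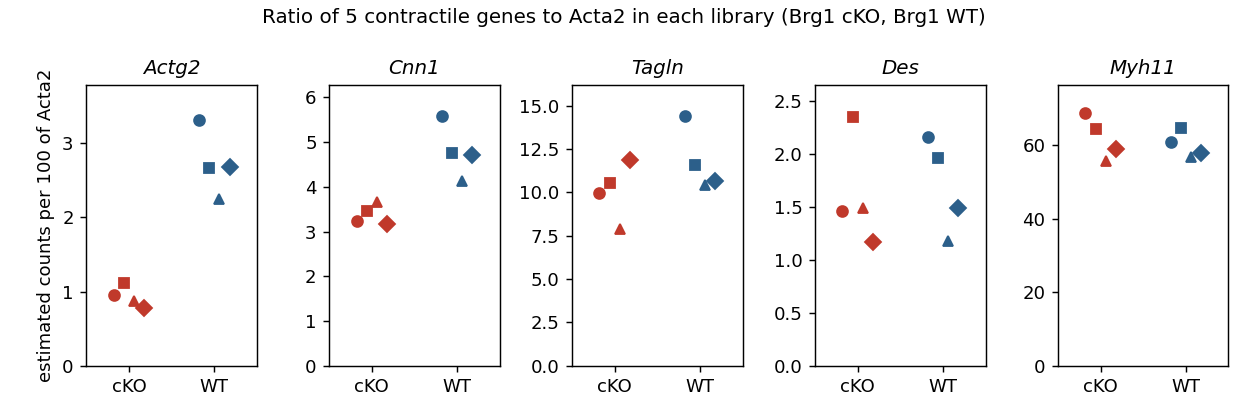
Estimated counts of Actg2, Cnn1, Tagln, Des and Myh11 per 100 counts of Acta2 (vertical axes, from 0) in each Brg1 cKO library (red, left) and Brg1 WT library (blue, right), one symbol per replicate number. The genotypes do not overlap for Actg2 (0.783 to 1.11 in Brg1 cKO, 2.25 to 3.32 in Brg1 WT) and for Cnn1 (3.18 to 3.66 in Brg1 cKO, 4.13 to 5.59 in Brg1 WT), and overlap for the other 3. The share of all genes without overlap in this ratio was not computed.

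Thick filament genes were higher on average in Brg1 cKO, but none passed the test. Myh11, the smooth muscle myosin heavy chain, had 615, 466, 575 and 390.2 CPM in Brg1 cKO replicates 1 to 4 and 243, 469, 414 and 403 CPM in Brg1 WT replicates 1 to 4. Brg1 cKO replicates 2 and 4 lay within the Brg1 WT range, and Brg1 WT replicate 1 lay below every other library. Means were 511 ± 102 CPM in Brg1 cKO and 382 ± 97.2 CPM in Brg1 WT (SD, n = 4 each). The difference of 0.42 ± 0.21 (SE) on the log2 scale had an adjusted p = 0.185 by edgeR, with a 95% interval of 0.959 to 1.87 for the ratio. Its ratio to Acta2 was much alike in the genotypes, at 61.9 ± 5.83 per 100 Acta2 counts in Brg1 cKO and 60.0 ± 3.60 in Brg1 WT (SD, n = 4 each).

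Myl9 encodes the regulatory light chain of this myosin and Mylk the kinase that phosphorylates it. Myl9 had 324, 312, 394 and 291 CPM in Brg1 cKO replicates 1 to 4, against 161, 299, 280.4 and 295 CPM in Brg1 WT replicates 1 to 4 (log2 fold change 0.35 ± 0.19 SE, adjusted p = 0.217). Only Brg1 WT replicates 2 and 4 reached into the Brg1 cKO range. Mylk had 605, 499, 631 and 464 CPM in Brg1 cKO replicates 1 to 4, against 300.4, 479, 451 and 480.5 CPM in Brg1 WT replicates 1 to 4. Overlap came from Brg1 cKO replicate 4, which lay under Brg1 WT replicates 2 and 4. The log2 fold change of Mylk was 0.36 ± 0.16 (SE), with an unadjusted p of 0.0497 and an adjusted p = 0.136 by edgeR, and the 95% interval of the ratio began at 1.00 and ended at 1.65. For Myl9 that interval was 0.944 to 1.72.

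None of the thin filament regulators passed the test. Tpm2, a tropomyosin that lies along the actin filament, had 89.8, 76.1, 105.6 and 58.1 CPM in Brg1 cKO replicates 1 to 4 and 48.0, 75.8, 69.4 and 72.5 CPM in Brg1 WT replicates 1 to 4 (log2 fold change 0.31 ± 0.20 SE, adjusted p = 0.285). Tagln, which encodes the actin-bundling protein transgelin, had 89.4, 76.1, 81.7 and 78.7 CPM in Brg1 cKO replicates 1 to 4, against 57.6, 84.0, 76.0 and 74.3 CPM in Brg1 WT replicates 1 to 4. Its Brg1 cKO libraries lay close together and Brg1 WT replicate 1 lay apart from the rest (log2 fold change 0.16 ± 0.11 SE, adjusted p = 0.312). The 95% intervals of the ratio were 0.908 to 1.70 for Tpm2 and 0.944 to 1.32 for Tagln.

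Cnn1, the gene for calponin, which binds actin and slows the myosin ATPase, was not higher on average in Brg1 cKO. It had 28.9, 25.0, 37.8 and 21.1 CPM in Brg1 cKO replicates 1 to 4 and 22.3, 34.4, 30.1 and 32.9 CPM in Brg1 WT replicates 1 to 4. The groups overlapped widely, and the log2 fold change of -0.09 ± 0.19 (SE, adjusted p = 0.773) turned to 0.03 without Brg1 cKO replicate 4. Set against Acta2, Cnn1 had 3.38 ± 0.223 counts per 100 in Brg1 cKO and 4.80 ± 0.601 in Brg1 WT (SD, n = 4 each), with no overlap between the libraries. This ratio, too, was formed after values were seen and was not tested. Acta2, the divisor, had a log2 fold change of 0.38 between the genotypes, which enters the ratio. The share of all genes whose ratio to Acta2 does not overlap was not computed.

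Des encodes desmin, the intermediate filament protein of muscle, which pericytes and striated muscle also make. It had 13.0, 17.0, 15.3 and 7.77 CPM in Brg1 cKO replicates 1 to 4, against 8.64, 14.2, 8.59 and 10.4 CPM in Brg1 WT replicates 1 to 4. Brg1 cKO replicate 4 was the lowest of all 8 libraries, and the log2 fold change was 0.35 ± 0.25 (SE, adjusted p = 0.340). Its 95% interval for the ratio, 0.863 to 1.88, was wide, and the gene rested on 157 to 466 estimated counts a library.

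**Figure D3:**
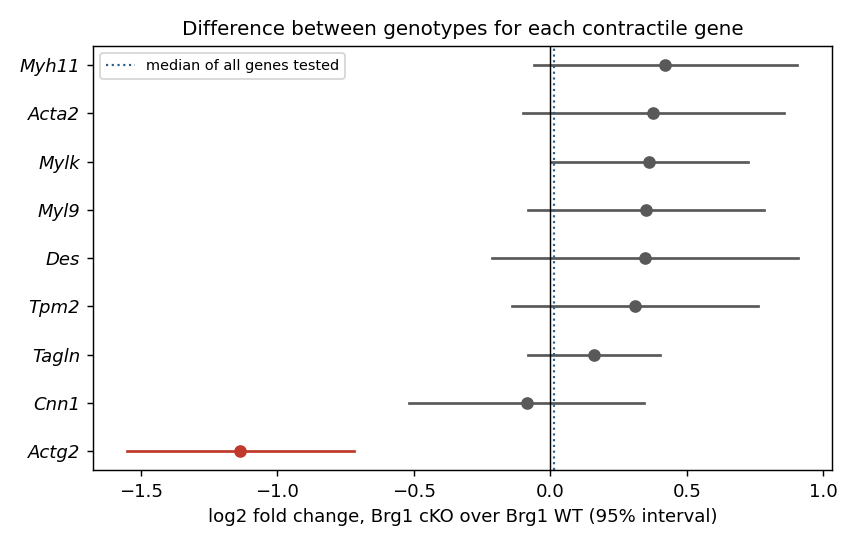
Log2 fold change of each contractile gene, Brg1 cKO over Brg1 WT (horizontal axis), with the 95% interval from the edgeR fit. Red marks an adjusted p under 0.05, and the dotted line is the median of all genes tested. The interval of Actg2 runs from -1.55 to -0.72, whereas 7 other intervals include 0 and that of Mylk begins just above it.

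Levels of different genes were compared per kilobase of the transcript with the longest open reading frame in GENCODE M21, as CPM per kb. In Brg1 cKO the order by mean was Acta2 (407), Myl9 (293), Myh11 (79.3), Mylk (70.3), Tagln (51.1), Tpm2 (37.9), Cnn1 (11.8), Actg2 (5.77) and Des (4.39). In Brg1 WT it was Acta2 (314), Myl9 (230), Myh11 (59.2), Mylk (54.7), Tagln (45.7), Tpm2 (30.5), Actg2 (12.7), Cnn1 (12.6) and Des (3.45). Actg2 ranged from 3.90 to 6.74 CPM per kb over the Brg1 cKO libraries, overlapping Des (2.57 to 5.61) and below Cnn1 (8.85 to 15.9). In the Brg1 WT libraries its range of 9.95 to 14.5 CPM per kb overlapped Cnn1 (9.38 to 14.5) and lay above Des (2.84 to 4.70). Neighbours Acta2 and Myl9, and Myh11 and Mylk, overlapped in both genotypes. The level of Mylk per length is uncertain, since the gene has 8 annotated transcripts of different lengths and 7824 bases were used here. The other members also have more than 1 annotated transcript, among them Actg2 with 6 (1333 bases used) and Cnn1 with 5 (2381 bases used). The order of Actg2 and Cnn1 shares this limit.

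The libraries in which the contractile genes were low were the same for nearly all members. Among the Brg1 cKO libraries replicate 4 was lowest for 8 of the 9, with Tagln lowest in replicate 2. Among the Brg1 WT libraries replicate 1 was lowest for 8 of the 9, with Des lowest in replicate 3, and replicate 2 was highest for 7. The mean log2 CPM of the 8 members other than Actg2 was 7.27, 7.11, 7.42 and 6.82 in Brg1 cKO replicates 1 to 4, against 6.40, 7.14, 6.94 and 7.01 in Brg1 WT replicates 1 to 4. The range between libraries of a genotype was thus wider than the distance between the genotype means, 7.16 ± 0.258 in Brg1 cKO and 6.87 ± 0.326 in Brg1 WT (SD, n = 4 each).

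Pairwise Pearson correlations of log2 CPM over the 8 libraries describe this covariation, with the caution that all genes of a library share its cell mixture and depth. Among the 8 members without Actg2 the 28 pairs had a median r of 0.83, from 0.48 for Tagln with Des to 0.98 for Acta2 with Mylk. Actg2 had r of -0.29 to 0.53 with the others. Once the genotype means were subtracted, the 8 pairs that include Actg2 had r of 0.61 to 0.94, highest with Tpm2, and the 28 other pairs had a median of 0.87. Des followed the rest least closely, at 0.36 to 0.70 after subtraction with the 7 other members apart from Actg2.

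**Figure D4:**
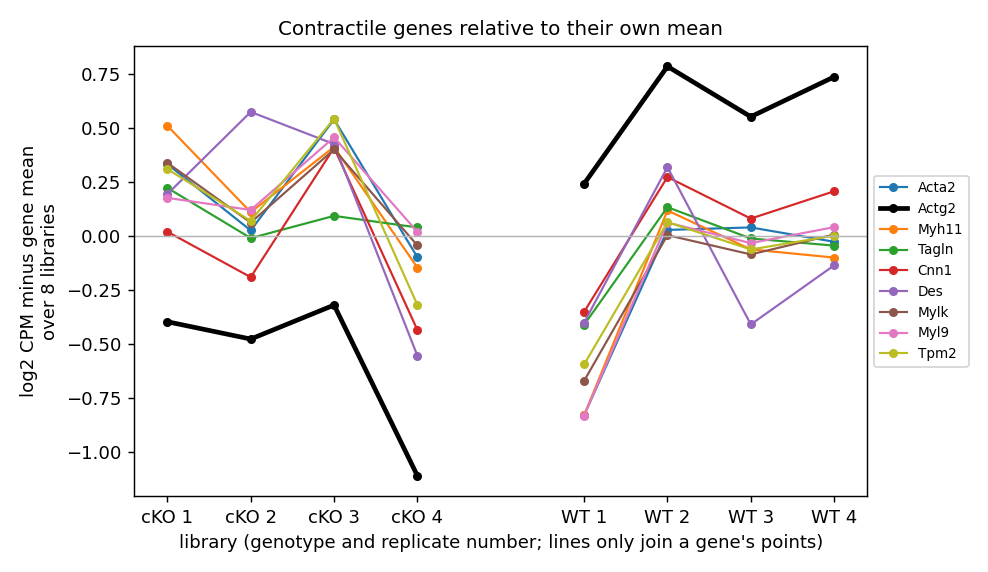
Log2 CPM of each contractile gene minus its own mean over the 8 libraries (vertical axis), by library (horizontal axis, Brg1 cKO replicates 1 to 4 at left, Brg1 WT replicates 1 to 4 at right). Actg2, in black, dips in Brg1 cKO replicate 4 and Brg1 WT replicate 1 as most of the other genes do, but lies below all of them in each Brg1 cKO library and above all of them in each Brg1 WT library.

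Among 12476 other genes with an average log2 CPM of at least 1, the 6 whose log2 CPM correlated best with the mean of the 9 members over the 8 libraries were Trpv2, Adrbk2, Mfap4, Fbln5, Tspan9 and Bmp4. Their r ran from 0.958 to 0.977. Mfap4 and Fbln5 encode proteins of elastic fibres, Bmp4 a secreted growth factor and Trpv2 a cation channel. Mfap4, the most abundant of them, averaged 149 CPM in Brg1 cKO and 123 CPM in Brg1 WT, and fell to 91.4 CPM in Brg1 cKO replicate 4 and 67.7 CPM in Brg1 WT replicate 1. None of these 6 passed the test between genotypes (adjusted p = 0.353 to 0.804, edgeR), an outcome that likeness to a mean of mostly overlapping members largely fixed.

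Around Actg2 alone, the best matches were Anpep, Mon1a, Krtcap2 and Rhox10, with r of 0.967 to 0.980. Anpep, which encodes the surface peptidase aminopeptidase N, averaged 4.69 CPM in Brg1 cKO and 11.96 CPM in Brg1 WT. Rhox10, an X-linked homeobox gene of germ cells, averaged 1.08 CPM in Brg1 cKO and 3.46 CPM in Brg1 WT. All 4 were called lower (adjusted p = 0.0021 to 0.025, edgeR), a direction that likeness to Actg2 fixed.

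Other smooth muscle and cytoskeletal genes, 24 in all, were examined beside the members. EdgeR called 4 higher, none lower and 20 neither, beside 8.79% higher and 11.8% lower of all genes tested. The median log2 fold change was 0.32. At an unadjusted p under 0.05 by edgeR there were 8 higher and none lower. DESeq2 called 8 higher and none lower after adjustment, against 4 higher by edgeR, beside 2220 higher of 17146 genes in all. Synm, the gene for the intermediate filament protein synemin, had 80.6, 67.5, 77.4 and 106 CPM in Brg1 cKO replicates 1 to 4, against 48.9, 49.7, 52.0 and 61.2 CPM in Brg1 WT replicates 1 to 4 (log2 fold change 0.65 ± 0.13 SE, adjusted p = 0.013). Its highest library was Brg1 cKO replicate 4, where the contractile members were low. Vcl, which encodes the adhesion protein vinculin, was 1.29-fold higher, and Myl6, the essential light chain shared with non-muscle myosin, 1.33-fold higher. Both Vcl and Myl6 are made by many cell types. The number called higher was 2 without Brg1 cKO replicate 1, Brg1 cKO replicate 3 or Brg1 WT replicate 2, and 0 of 24 by edgeR without Brg1 WT replicates 1 and 2, where 6 were higher before adjustment.

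Of 26 symbols for regulators of smooth muscle transcription and tone, 24 were tested, at a median log2 fold change of 0.23. EdgeR called 3 higher, 3 lower and 18 neither, near the 8.79% higher and 11.8% lower of all genes tested. Before adjustment 10 were higher and 4 lower. DESeq2 called 7 higher and 3 lower, beside 2220 higher and 2202 lower of 17146 genes in all. Smad3, a mediator of TGF-beta signalling, averaged 77.8 ± 11.2 CPM in Brg1 cKO and 50.8 ± 6.57 CPM in Brg1 WT (SD, n = 4 each), 1.53-fold higher (edgeR, adjusted p = 0.010). Tead1, a DNA-binding partner of YAP, was 1.33-fold higher (adjusted p = 0.011). Mkl1, which encodes a myocardin-related coactivator of serum response factor, fell to 35.1 ± 2.21 CPM in Brg1 cKO, against 43.7 ± 2.98 CPM in Brg1 WT (edgeR, adjusted p = 0.019). Srf, the gene for serum response factor, and Myocd, the gene for myocardin, are named after their values were seen.

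Srf had 242, 171, 205 and 196 CPM in Brg1 cKO replicates 1 to 4, against 124, 149, 156 and 159.7 CPM in Brg1 WT replicates 1 to 4. It rose without overlap between the genotypes (log2 fold change 0.47 ± 0.11 SE, adjusted p = 0.021). Myocd averaged 9.98 ± 2.61 CPM in Brg1 cKO and 8.73 ± 3.92 CPM in Brg1 WT (adjusted p = 0.677), with widely spread libraries. With a single library left out, edgeR called 2 to 5 of the 24 regulators higher, most without Brg1 WT replicate 3, and 0 to 4 lower. On leaving out Brg1 cKO replicate 1 or Brg1 WT replicate 2 the number lower was 0, and it was 1 on leaving out any other library but Brg1 cKO replicate 4. Without both Brg1 WT replicates 1 and 2 edgeR called 0, and before adjustment 4 were higher and 4 lower.

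**Figure D5:**
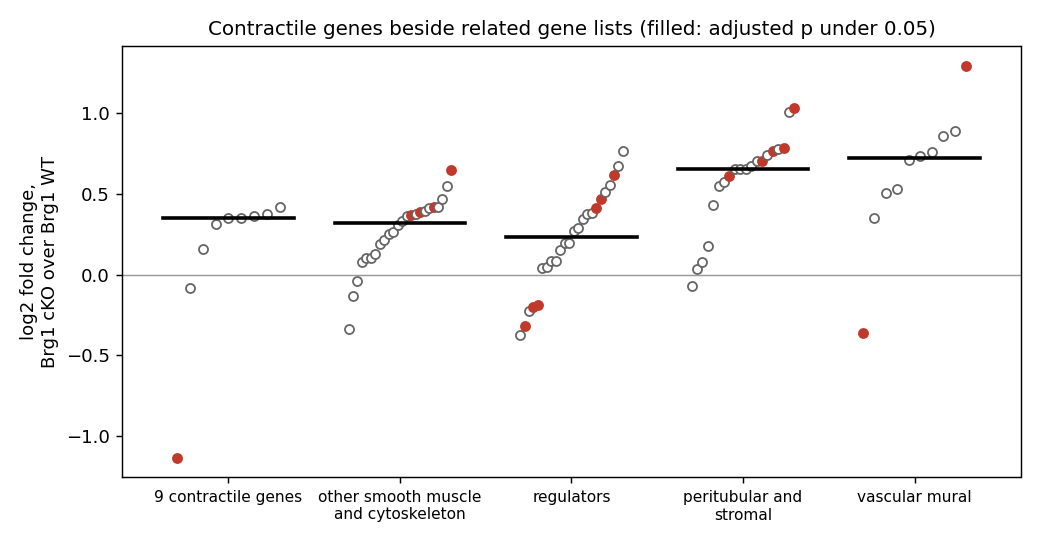
Log2 fold change, Brg1 cKO over Brg1 WT (vertical axis), of each tested gene in 5 lists, sorted within the list, with filled points for an adjusted p under 0.05 and a bar at the list median. The median is 0.35 for the contractile genes, 0.32 for other smooth muscle and cytoskeletal genes, 0.23 for regulators, 0.66 for peritubular and stromal genes and 0.72 for vascular mural genes, and Actg2 is the lowest point of all.

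Peritubular and stromal markers shared the lowest library of each genotype with the contractile genes, but not the order of the others. The summed level of 20 such markers other than the members was 1895 to 3494 CPM in Brg1 cKO, lowest in replicate 4 and highest in replicate 2, and 1370 to 2201 CPM in Brg1 WT, lowest in replicate 1. In Brg1 cKO replicate 2, where the stromal markers were highest, the 9 contractile genes summed to 2202 CPM, the second lowest of the Brg1 cKO libraries. Of these markers edgeR called 5 higher and none lower, beside 8.79% higher and 11.8% lower of all genes tested. Their median log2 fold change was 0.66. Before adjustment 11 were higher by edgeR and none lower. DESeq2 called 11 higher and none lower after adjustment, against 5 higher by edgeR, beside 2220 higher of 17146 genes in all. With Brg1 cKO replicate 4 left out, 15 markers and 1391 genes in all were called higher. With Brg1 cKO replicate 2 left out, 1497 genes in all were higher and the number of markers called higher was 3. It was 2 on leaving out Brg1 WT replicate 1, 2 or 4, and 1 on leaving out Brg1 cKO replicate 1 or 3. EdgeR called 0 when Brg1 WT replicates 1 and 2 were both left out, and 5 were then higher before adjustment. Pdgfra, a growth factor receptor of stromal progenitors, averaged 235 ± 52.5 CPM in Brg1 cKO and 115 ± 25.6 CPM in Brg1 WT. Ptch1, the hedgehog receptor, was 1.70-fold higher and Lama2, a laminin chain of basement membranes, 1.63-fold higher (adjusted p = 0.024 each).

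For each 100 CPM of these stromal markers the 9 contractile genes had 83.4, 63.0, 94.2 and 104 CPM in Brg1 cKO replicates 1 to 4, against 91.5, 99.9, 102 and 105 CPM in Brg1 WT replicates 1 to 4. The genotypes overlapped on this measure. The median of the stromal markers was also taken as no change, a shift of 0.66 on the log2 scale. Actg2, Cnn1 and Tagln were then called lower, beside 11874 of all 16059 genes tested. No member exceeded a log2 fold change of 0.42 before the shift. The negative signs that Acta2, Myh11, Mylk, Myl9, Tpm2, Des and Tagln then took followed from the shift itself. The part that the share of stromal cells plays in the contractile gene levels was not tested.

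Vascular mural markers, those of pericytes and vessel smooth muscle, summed to 162 to 368 CPM over 10 genes in Brg1 cKO and to 199 to 280.5 CPM in Brg1 WT. EdgeR called 1 of the 10 higher, Higd1b, and 1 lower, Mcam, beside 8.79% higher and 11.8% lower of all genes tested. The median log2 fold change was 0.72, and before adjustment 3 were higher and 1 lower. Mcam, an adhesion molecule, fell to 104 ± 11.6 CPM in Brg1 cKO, against 133 ± 14.4 CPM in Brg1 WT. It weighs most in the sums, with 94.9 of the 162 CPM in Brg1 cKO replicate 4. Mcam alone had a negative log2 fold change, at -0.36, while the others ran from 0.35 to 1.30. Higd1b had no more than 38 counts in any library. Its call was lost when any library but Brg1 cKO replicate 4 was left out, and that of Mcam without Brg1 cKO replicate 1, 3 or 4 or Brg1 WT replicate 2 or 3. Rgs5, a pericyte gene named after its values were seen, averaged 56.7 ± 39.0 CPM in Brg1 cKO and 30.7 ± 10.9 CPM in Brg1 WT without being called (adjusted p = 0.253). The part of vessel cells in the contractile gene levels was not tested.

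Striated muscle markers were mixed in level. The muscle regulators Myod1 and Myog had at most 5 estimated counts in any library, Ckm at most 16, and the striated actins Actc1 and Acta1 at most 8 and 32. Tnnt2, a troponin gene of the heart, was well above these, at 29.3 ± 5.66 CPM in Brg1 cKO and 24.6 ± 7.25 CPM in Brg1 WT. The developmental myosin genes Myh8 and Myh3 had at most 347 and 152 counts in any library. The 15 striated muscle genes summed to 48.5 to 58.9 CPM in Brg1 cKO and 45.5 to 69.4 CPM in Brg1 WT. Of the 15, 9 passed the filter on low counts. EdgeR called 1 of these 9 lower, Ttn, beside 11.8% of all genes tested. Its mean was 8.01 ± 1.11 CPM in Brg1 cKO and 15.9 ± 3.25 CPM in Brg1 WT. Ttn encodes titin, the giant spring protein of the sarcomere.

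Somatic as well as germ cell transcripts were present in every library, and the remaining cell types are given by their summed markers. The counts called stand beside 8.79% higher and 11.8% lower of all genes tested by edgeR. Germ cell markers (15) summed to 1850 to 2299 CPM in Brg1 cKO and 2431 to 3116 CPM in Brg1 WT, highest in Brg1 WT replicate 1, with 5 called lower, Kit, Tex101 and Stra8 among them, and 3 lower on leaving out Brg1 cKO replicate 1 or 3 or Brg1 WT replicate 2. Sertoli cell markers (16) summed to 7097 to 9656 CPM in Brg1 cKO and 5534 to 7401 CPM in Brg1 WT, with 6 called higher, Cst12, Dhh and Amh among them, and 1 lower. The number of Sertoli markers higher was 9 without Brg1 cKO replicate 2 and 3 without Brg1 cKO replicate 3. It was 2 on leaving out Brg1 WT replicate 1 or 2. The lower call was lost on leaving out Brg1 cKO replicate 3 or Brg1 WT replicate 1, 2 or 3. DESeq2 called 8 germ cell markers lower and none higher, and 10 Sertoli cell markers higher and 1 lower. These stand beside 2220 higher and 2202 lower of 17146 genes in all by DESeq2. Leydig cell markers (10) summed to 61.8 to 109 CPM in Brg1 cKO and 56.0 to 66.3 CPM in Brg1 WT, with Fabp3 and Akr1c14 called higher. The number of Leydig markers higher was 5 on leaving out Brg1 cKO replicate 4, 0 by edgeR on leaving out Brg1 cKO replicate 1 or Brg1 WT replicate 2 (2 and 4 before adjustment), and 1 with any other library left out. Endothelial markers (12) summed to 219 to 564 CPM in Brg1 cKO and 214 to 352 CPM in Brg1 WT, at a median log2 fold change of 0.41. The most abundant of them, Pecam1, had the lowest log2 fold change of the list, at 149 ± 60.4 CPM in Brg1 cKO and 147 ± 32.9 CPM in Brg1 WT. Macrophage markers (11 measured) summed to 42.2 to 88.5 CPM in Brg1 cKO and 45.6 to 65.9 CPM in Brg1 WT, at a median log2 fold change of 0.48. Mrc1, the most abundant, averaged 24.2 ± 3.22 CPM in Brg1 cKO and 24.8 ± 2.33 CPM in Brg1 WT and alone had a negative log2 fold change. In these last lists edgeR and DESeq2 called 0 genes, and by edgeR before adjustment 1 endothelial gene was higher and 0 macrophage genes differed. EdgeR called 2 endothelial genes higher on leaving out Brg1 cKO replicate 4.

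Promoter sequences were found in RefSeq (GRCm38.p6) for 6 of the 9 members, Acta2, Cnn1, Des, Mylk, Myl9 and Tpm2, each over 250 bases before and 50 after the annotated start. They were searched for the CArG box, the binding motif of serum response factor. The motif reads the same on both strands, so matches on either strand coincide. An exact CArG box was found in 1 of the 6 windows, that of Myl9, and in 1.63% of the 32851 promoter windows of the table. With 1 of the 6 inner bases allowed to be other than A or T, Myl9 and Acta2 held 2 matches each, and 9.98% of all windows held at least 1. The matches are shown, in capitals, with their flanks.
Acta2, 84 bases before the start, chr19:34255423-34255482, minus strand: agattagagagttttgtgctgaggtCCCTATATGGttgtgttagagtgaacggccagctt
Acta2, 34 bases before the start, chr19:34255374-34255432, minus strand: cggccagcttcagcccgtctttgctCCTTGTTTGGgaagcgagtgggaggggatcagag
Myl9, 161 bases before the start, chr2:156775278-156775337, plus strand: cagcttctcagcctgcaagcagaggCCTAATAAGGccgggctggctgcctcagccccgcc
Myl9, 99 bases before the start, chr2:156775340-156775399, plus strand: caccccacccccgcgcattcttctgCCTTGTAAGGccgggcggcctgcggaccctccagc
A match is a description of these letters and not evidence of binding, and the windows of Cnn1, Des, Mylk and Tpm2 held none.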

How the data were processed

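The authors deposited estimated counts per gene symbol for 8 libraries. Quantification with kallisto 0.42.5 is named, with build mm9 and edgeR, per the submitters' processing notes, and the sources used here do not give the annotation. Replicates are described as biological in the design text. The estimated counts, of which 49.6% were not whole, were rounded. Genes were filtered with filterByExpr, scaled by TMM and tested with edgeR 4.0.16 (robust quasi-likelihood test, genotype the only term, R 4.3.3), with Benjamini-Hochberg adjustment over 16059 genes and a threshold of 0.05. The script was tested on simulated data. CPM use TMM-scaled totals, log2 CPM a prior count of 2, and intervals the moderated degrees of freedom. Every library pair differed beyond sampling noise (lowest chi-square per degree of freedom 21.6). The members and lists were chosen with earlier results of these data known. Named were Smarca4, the members, per list the called genes lowest in adjusted p, at most 3 (where none was called, the most abundant gene), and the best matches by correlation. Alternatives were DESeq2 1.42.0, voom of limma 3.58.1, other scalings and filters, left-out libraries and the replicate number as a block. Totals of 20456743 to 32596038 counts limit the precision of low genes. Coding and transcript sequences came from GENCODE M21, matched by symbol, a later build than mm9.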

Additional observations from a re-analysis of the deposited data

Results flagged for a closer look

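Brg1 WT replicate 1 lay apart from the other 3 Brg1 WT libraries for 3 members. Acta2 had 399.7 CPM there, with the nearest library at 697 CPM, a gap of 0.901 of the group's range. Mylk had 300.4 CPM there, with the nearest library at 451 CPM, and Myl9 had 161 CPM, with the nearest at 280.4 CPM. In each the gap to the next library exceeded Dixon's 95% critical value for 4 samples. The measure was applied to 20 groups, the 9 members and Smarca4 in each genotype, and chance flags about 1 in 20 independent groups. These groups are not independent. Acta2, Mylk and Myl9 correlated at 0.95 to 0.98 with genotype means subtracted, so the 3 flags describe 1 library and not separate events. In the same library the summed peritubular and stromal markers were at their lowest, 1370 CPM, and the germ cell markers at their highest, 3116 CPM. Without it, the log2 fold changes were 0.21 for Acta2, 0.23 for Mylk, 0.18 for Myl9, 0.26 for Myh11, 0.18 for Tpm2, 0.06 for Tagln and 0.27 for Des, and Actg2 had -1.24 (adjusted p = 0.0081, edgeR).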

How the results depend on the processing

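Actg2 was called lower in all 19 alternatives, of which 17 kept the baseline and the others lowered every gene by a shift. The count of members called was 1 in each except with the stromal median taken as no change, where it was 3. In that fit 11874 of 16059 genes were called lower, and the shift itself made the log2 fold change of every member negative. There the log2 fold changes turned to -0.28 (Acta2), -0.23 (Myh11), -0.50 (Tagln), -0.31 (Des), -0.29 (Mylk), -0.31 (Myl9) and -0.34 (Tpm2), and Cnn1 had -0.74 (adjusted p = 0.0060). With the median of other smooth muscle genes taken as no change, Tagln and Tpm2 had -0.16 and -0.0087. Leaving out each library in turn gave -1.24 to -0.99 for Actg2 and -0.26 to 0.031 for Cnn1, positive only without Brg1 cKO replicate 4. Without Brg1 cKO replicate 4 and Brg1 WT replicate 1 together, chosen after seeing the data, Actg2 had -1.09 and 2138 genes were called.

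The number of genes called in all, 3312 (1900 lower, 1412 higher), was 1608 to 3477 with 1 library left out (1608 and 1881 without Brg1 cKO replicates 1 and 3, and 2037, 1777 and 2135 without Brg1 WT replicates 1, 2 and 3), and 438 with Brg1 WT replicates 1 and 2 both left out. The count was 11890 relative to the stromal median (11874 lower) and 7583 relative to other smooth muscle genes (7473 lower). DESeq2 called 4422 genes, 2202 lower and 2220 higher. The replicate number as a block gave 1914 and left Actg2 lower (adjusted p = 0.024). Deviations of same-numbered libraries correlated at -0.206, 0.127, -0.367 and 0.152, so the numbers were not taken to pair the samples. The cause of these shifts was not tested. Fits with libraries left out also held fewer libraries, and the part of that was not tested either. Des rested on the fewest counts in Brg1 WT and had the widest interval.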
